A study of Homo sapiens with 12 samples.

Results

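The genes described are those of the cytosolic ribosomal proteins, RPS for the small subunit and RPL for the large one. They were taken by symbol: RPSA, RPLP0, RPLP1, RPLP2 and each RPS or RPL name with a number and at most a short suffix. This left out pseudogenes whose names end in P and a number. The rule found 85 of 58830 entries in the table, 33 of the small and 52 of the large subunit. RNA-seq was done on A549, a human lung adenocarcinoma line, as wild type and as a derivative in which the site in SNAI1 that miR-22 targets was edited (here, the edited line). Both lines were sampled at day 5, untreated or with TGFβ, an inducer of epithelial-mesenchymal transition, at 10 ng/mL. The 4 groups of 3 libraries were thus wild type untreated, wild type with TGFβ, edited line untreated and edited line with TGFβ. There was a single edited derivative, and the sources used here do not say whether it is 1 clone. Effects of the edit and of deriving that line cannot be told apart.

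A ribosome is built from ribosomal RNA and one copy of most ribosomal proteins, so cells make the members in step and degrade unpaired ones. Most of their mRNAs are short, very abundant and begin with a run of pyrimidines, the terminal oligopyrimidine (TOP) motif, through which mTOR and LARP1 control their translation and stability. Several members have a paralog (RPL22L1, RPL39L, RPL7L1 and others) that is expressed at a lower level or in other tissues.

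The libraries held 84210775 to 111141708 reads. SNAI1, the edited target, had normalized counts of 510, 400 and 576 in untreated wild type and of 958, 897 and 768 with TGFβ. The edited line had 513, 499 and 432 untreated and 1406, 1214 and 1318 with TGFβ, so both treated groups lay above both untreated ones. The edit removes a target site, so a SNAI1 level does not check the genotype label. Of 10 markers of lung adenocarcinoma epithelium, 1 had a group mean under 10 in each group, and their summed count was 1570520 to 2391470 per library. Together, 6 fibroblast markers summed to 165 to 283 normalized counts without TGFβ and 1408 to 2317 with it. For 6 endothelial markers the sum was 32.6 to 185 and for 6 leukocyte markers 240 to 423, and up to 2 markers of either list stood at 0 throughout a group. In bulk RNA a change in which cells are present and a change in RNA per cell cannot be told apart, and normalized counts are relative within a library.

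The first bases of the transcripts are shown because the TOP motif marks this gene family and because some of the paralogs described below differ from their partners in it. RefSeq (GRCh38.p14) listed a start for 67 of the 85 members. Each window below runs from 5 bases before the start through 15 bases from it, 5′ to 3′ on the gene's strand. Capitals mark a run of at least 5 bases that begins with C and holds only C and T, at most 5 bases from the start.
RPS6: tggccCTCTTTTCCgtggcg
RPLP0: gaggcCCTTCTCTCgccagg
RPSA: cctgtCTTTTCCgtgctacc
RPL28: ccttcCTCTTTCCgtctcag
RPL22: acctcCCTTTCTaactccgc
RPL22L1: gcttcCTCTCTgctctcgcg
RPS27: tcgctCCTTTCCggcggtga
RPS27L: cgagcgcagatcgcttgcag
RPL26: tagttCTCTTCCCTTTTgcg
RPL26L1: cggccacaaacccgcaggca
RPL7L1: gcgccgtagctaggagcgga
The RPL22 window is chr1:6199581-6199600 and the RPL22L1 window is chr3:170870181-170870200, both on the minus strand. The RPS27 window is chr1:153990757-153990776 on the plus strand and the RPS27L window is chr15:63157463-63157482 on the minus strand. A run of this kind began exactly at the start in 47 of the 67 members (70.1%), against 5.14% of 27305 genes with a listed start, and where several starts were listed any of them counted. It began at the start in 78.9% of 19 other genes with TOP mRNAs and in 8.82% of 68 mitochondrial ribosomal protein genes. RPL22L1 held such a run of 6 bases and RPL22 one of 7, whereas RPS27L, RPL26L1 and RPL7L1 held none in this window. No start was listed for RPL39L or for RPL7, so these were not compared with RPL39 and RPL7L1. A match is a description of these letters and not a measure of translation.

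The members took between 4.11% and 5.51% of all normalized counts in a library. In untreated wild type the share was 4.79%, 4.46% and 4.46%, with a mean of 4.57% ± 0.189 (SD, n = 3). In wild type with TGFβ it was 5.45%, 4.80% and 4.11%, with a mean of 4.79% ± 0.671 (SD, n = 3). The 3 treated wild-type libraries thus spread over nearly the whole range seen in the study. The edited line had 5.51%, 5.42% and 5.18% untreated (mean 5.37% ± 0.171, SD, n = 3) and 5.49%, 4.98% and 5.17% with TGFβ (mean 5.21% ± 0.259, SD, n = 3). Each edited untreated library lay above each untreated wild-type one, and with TGFβ the lines overlapped. In all 4 groups the library numbered replicate 1 had the highest share. The share of large-subunit members was 1.74 to 1.85 times that of small-subunit members in single libraries. Its mean was 1.79 ± 0.0299 (SD, n = 3) in untreated wild type, 1.77 ± 0.0201 in wild type with TGFβ, 1.83 ± 0.0103 in the untreated edited line and 1.84 ± 0.00948 in the treated one. The 10 highest members held 32.8% of the members' counts, and RPL4, a core protein of the large subunit, alone held 5.80%.

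**Figure D1:**
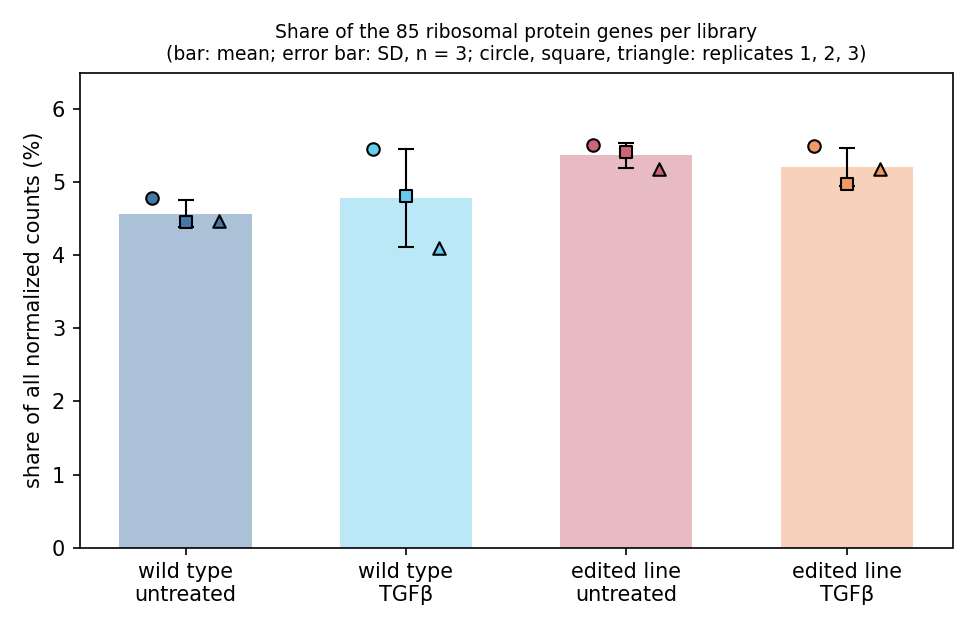
Share of all normalized counts (%, vertical axis, from 0) taken by the 85 ribosomal protein genes in each of the 12 libraries, by group; bars are means, error bars SD with n = 3, and marker shapes are replicates. The wild type with TGFβ runs from 4.11% to 5.45%, while the 3 untreated libraries of the edited line lie at 5.18% to 5.51%.

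Most members had their highest value within a group in the same library. The deviation of each member's log2(value + 1) from its own mean over the 12 libraries was taken, and the median over the 84 tested members is given per library. In wild type with TGFβ this median was 0.19 in replicate 1, -0.03 in replicate 2 and -0.29 in replicate 3. Replicate 1 of that group had the highest value for 80 of the 84 members and replicate 3 the lowest for 81, against 41.05% and 41.4% of all tested genes. In untreated wild type it was -0.02, -0.17 and -0.18, and replicate 1 was highest for 80 members, against 37.0% of all tested genes. In the edited line it was 0.11, 0.10 and 0.03 untreated, where replicates 1, 2 and 3 were highest for 58, 23 and 3 members, against 31.9%, 36.2% and 31.4% of all tested genes. With TGFβ it was 0.19, -0.00 and 0.09, and replicate 1 was highest for 77 members, against 36.8% of all tested genes. The pooled SD of this median within groups was 0.138. By group the SD was 0.0885 in untreated wild type and 0.241 in wild type with TGFβ. In the edited line it was 0.0439 untreated and 0.0936 with TGFβ. Differences of the pooled size thus lie within the spread of single libraries of wild type with TGFβ, the group that mainly supplies it. They exceed the SD of each other group.

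Other genes shifted between libraries by transcript length, and the members are short. The median transcript length of the 83 tested members with an annotated length was 764 bases, and 62 of them were under 1000 bases, against a median of 2344.5 bases over tested genes. The shift of a library was measured on 1771 non-member genes of 500 to 1000 bases, as their median log2 deviation minus that of 3018 non-member genes of 4000 to 8000 bases. It was 0.17, 0.04 and 0.07 in untreated wild type, and 0.13, -0.07 and -0.27 in wild type with TGFβ. Values in the edited line were 0.18, 0.20 and 0.12 untreated, and -0.08, -0.22 and -0.17 with TGFβ. Replicate 3 of wild type with TGFβ was therefore the library shifted furthest toward long transcripts, and it also had the lowest member median. The treated edited line was shifted toward long transcripts in all 3 libraries. Its member medians were 0.19, -0.00 and 0.09, against 0.11, 0.10 and 0.03 in its own untreated libraries. Untreated wild type had -0.02, -0.17 and -0.18. Within the treated edited line replicate 2 was shifted furthest. Its member median was the lowest of that group and lay below each untreated edited library. Genes under 500 bases did not follow the same order: in replicate 3 of wild type with TGFβ their median was 0.15. Counts of called members with the length trend removed are given with each comparison.

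**Figure D2:**
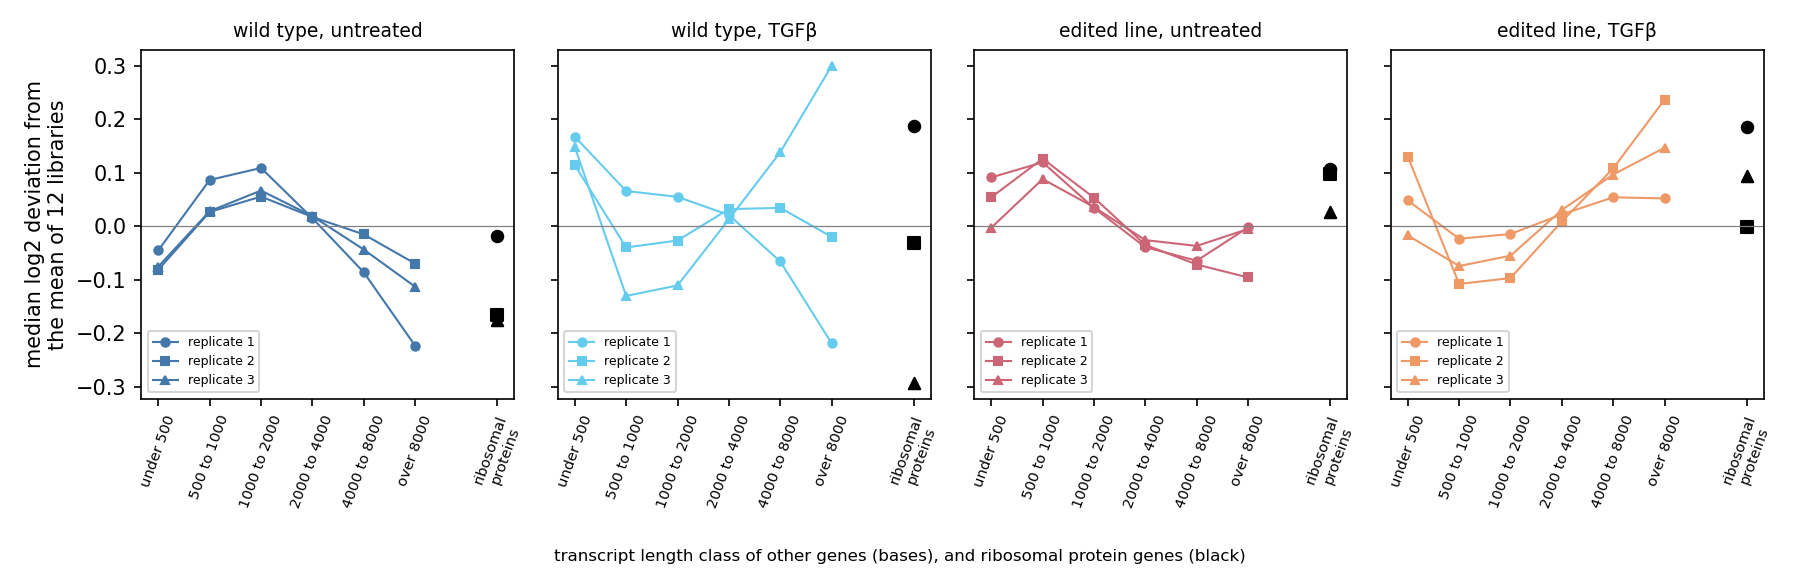
Median log2 deviation from the 12-library mean (vertical axis) of other genes in 6 classes of transcript length (bases, horizontal axis) and of the ribosomal protein genes (black, at right), with 1 panel per group and 1 marker shape per replicate. Replicate 3 of wild type with TGFβ falls to -0.13 for 500 to 1000 bases and has a member median of -0.29, whereas replicate 1 of that group has 0.07 and 0.19.

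Per kilobase of transcript, the members with the highest mean normalized count were RPLP1 (183512) and RPLP0 (182084), followed by RPL19 (141860), RPS2 (140197) and RPL12 (127858). RPLP0, RPLP1 and RPLP2 form the stalk on which elongation factors dock. RPLP0 read 191069, 175599 and 183805 in untreated wild type, 218267, 190387 and 156208 in wild type with TGFβ, 220497, 226435 and 219162 in the untreated edited line, and 226705, 196085 and 211309 in the treated one. Its untreated edited libraries lay above all untreated wild-type libraries and its treated groups overlapped. RPLP1 and RPLP2 had TGFβ changes of 0.18 ± 0.10 and 0.22 ± 0.10 (log2 ± SE) in wild type, with adjusted p of 0.123 and 0.0653 by limma.

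The lowest tested members per kilobase were RPL3L (9.12), RPS10 (169.9), RPL17 (486.5), RPL36A (800.0) and RPL39L (2158). RPL3L, a paralog of RPL3 that belongs to skeletal and heart muscle, had counts of 10.6 to 35.3 over the 12 libraries, while RPL3 had 124378 to 181916. RPL10L, a retrogene copy of RPL10 expressed in testis, had counts from 0 to 3.27 and was not tested. RPS10L passed the filter with counts of 1.10 to 26.9, had no annotated position or length and was called in no comparison. For RPS10, RPL17 and RPL36A the table holds a readthrough entry (RPS10-NUDT3, RPL17-C18orf32 and RPL36A-HNRNPH2) that stood at 0 in all 12 libraries. Reads at genes that overlap another entry can be left uncounted or split, so the low values of these 3 members, and their fold changes, are uncertain. Reads of a member and its near-identical pseudogenes can be split likewise. The summed pseudogenes held 54.0% of the counts of RPS28 and its pseudogenes, 53.6% for RPS10 and 45.2% for RPL9.

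RPL5 and RPL11, which with 5S RNA bind and inhibit MDM2, did not pass the test with TGFβ in either line. RPL5 had TGFβ changes of 0.04 ± 0.10 in wild type and 0.05 ± 0.10 in the edited line (log2 ± SE), with adjusted p of 0.755 and 0.646 by limma. RPL11 had 0.10 ± 0.10 and 0.01 ± 0.10, with adjusted p of 0.397 and 0.913.

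In wild type, TGFβ raised 11 and lowered 4 of the 84 tested members at an adjusted p under 0.05 by limma (called), where 30.8% of all 20456 tested genes were called higher and 30.9% lower. That is 13.1% of the members higher and 4.76% lower, both under the background. Their median log2 fold change was 0.07, against 0.02 over all tested genes. Of the 84, 9 were higher in all 3 treated than in all 3 untreated libraries and 4 lower, where 32.2% and 32% of all genes were so separated. The 11 that rose included RPS27L, RPL28, RPS19, RPL23, RPL27A, RPSA and RPS27, and the 4 that fell were RPL22L1, RPL7L1, RPL39L and RPL17.

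RPS27L, a paralog of RPS27 that p53 induces, rose most, from 18772, 16199 and 15390 untreated to 34132, 27941 and 25341 with TGFβ. The treated libraries all lay above the untreated ones, and the change was 0.79 ± 0.10 (log2 ± SE, 1.73-fold, adjusted p = 4.52e-06, limma). RPL28, a large-subunit protein, read 32923, 30389 and 32318 untreated and 52111, 47445 and 38744 treated, a rise of 0.52 ± 0.09 with an adjusted p of 7.86e-05. RPL36A rose by 0.68 ± 0.14 (adjusted p = 0.00042) and RPS10 by 0.57 ± 0.21 (adjusted p = 0.0295), both with the uncertainty given above. RPS19, mutated in Diamond-Blackfan anaemia, and RPL23, which binds MDM2, each rose by 0.42 ± 0.10. RPSA, which is also known as the laminin receptor, read 120928, 104890 and 109584 untreated and 164711, 144825 and 123234 treated, a rise of 0.36 ± 0.10 (adjusted p = 0.00379). These groups did not overlap for RPSA.

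Of the 33 small-subunit members 5 rose and 0 fell, and of the 51 tested large-subunit members 6 rose and 4 fell. By edgeR's quasi-likelihood test 13 members were higher and 4 lower, against 30.7% and 31.2% of all genes, and by DESeq2 16 and 4, against 31.8% and 31.2%. The counts in wild type depended on single treated libraries. Without replicate 3, 40 of 83 members were called higher and 3 lower, with 29.5% and 30.5% of all genes called. Without replicate 1, 8 were called higher and 11 lower, with 30.7% and 31.4% of all genes called, and the median was -0.05. With the length trend removed the median was 0.14, and 32 were called higher and 3 lower, against 31.5% and 31.7% of all genes. After centring each library on the members' median, a setting chosen after seeing the data, there were 10 and 12, against 24% and 29.8%. Centring takes out any shift that the members share, so here and below its counts show only how single members stand to the rest.

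In the edited line TGFβ raised 9 and lowered 9 of the 84 members, where 32.1% of all genes were called higher and 30.7% lower. The median was 0.02, against 0.03 over all genes, and 14 members were separated upward and 18 downward, with 35% and 34.2% for all genes. RPL28 rose by 0.58 ± 0.09 (log2 ± SE, adjusted p = 2.66e-05, limma), from 38962, 38704 and 37140 to 61078, 53047 and 57404. RPL23 rose by 0.57 ± 0.10 (adjusted p = 0.00015), from 55816, 52897 and 53108 to 85708, 75416 and 79558. For both genes each treated library was above each untreated one. RPS27L rose by 0.46 ± 0.10, RPL7A by 0.46 ± 0.10, RPSA by 0.43 ± 0.10 and RPL14 by 0.40 ± 0.08. Of the genes that fell, RPL22L1 had -1.46 ± 0.09, RPL39L -0.97 ± 0.09, RPL7L1 -0.95 ± 0.05, RPL17 -0.75 ± 0.12, RPL35A -0.36 ± 0.10 and RPL36 -0.34 ± 0.11. RPL35A is another gene of Diamond-Blackfan anaemia. All 9 that fell were of the large subunit. By edgeR 9 were higher and 16 lower, against 30.7% and 31.9% of all genes, and by DESeq2 10 and 9, against 32.5% and 30.9%. With the length trend removed 42 members were called higher and 5 lower, with 32.8% and 31.2% of all genes called, and the median was 0.19. After centring on the members' median there were 12 and 20, against 27.3% and 27.2%. Without replicate 1 or without replicate 3 of wild type with TGFβ, which enter only through the shared spread, 11 were higher and 17 lower, against 33% and 32.1% or 33% and 32.2%. Without replicate 1 or 2 of the untreated edited line 5 were lower, and without replicate 2 of the treated one 6. The share of all genes was not taken for those fits.

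Of the genes called higher, 7 were the same in both lines (RPL23, RPL27A, RPL28, RPL7A, RPS19, RPS27L and RPSA), which is 63.6% of the 11 in wild type and 77.8% of the 9 in the edited line. All 4 called lower in wild type were among the 9 of the edited line (44.4%). The share of all genes called the same way in both lines was not taken. These overlaps thus do not tell the members from other genes.

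**Figure D3:**
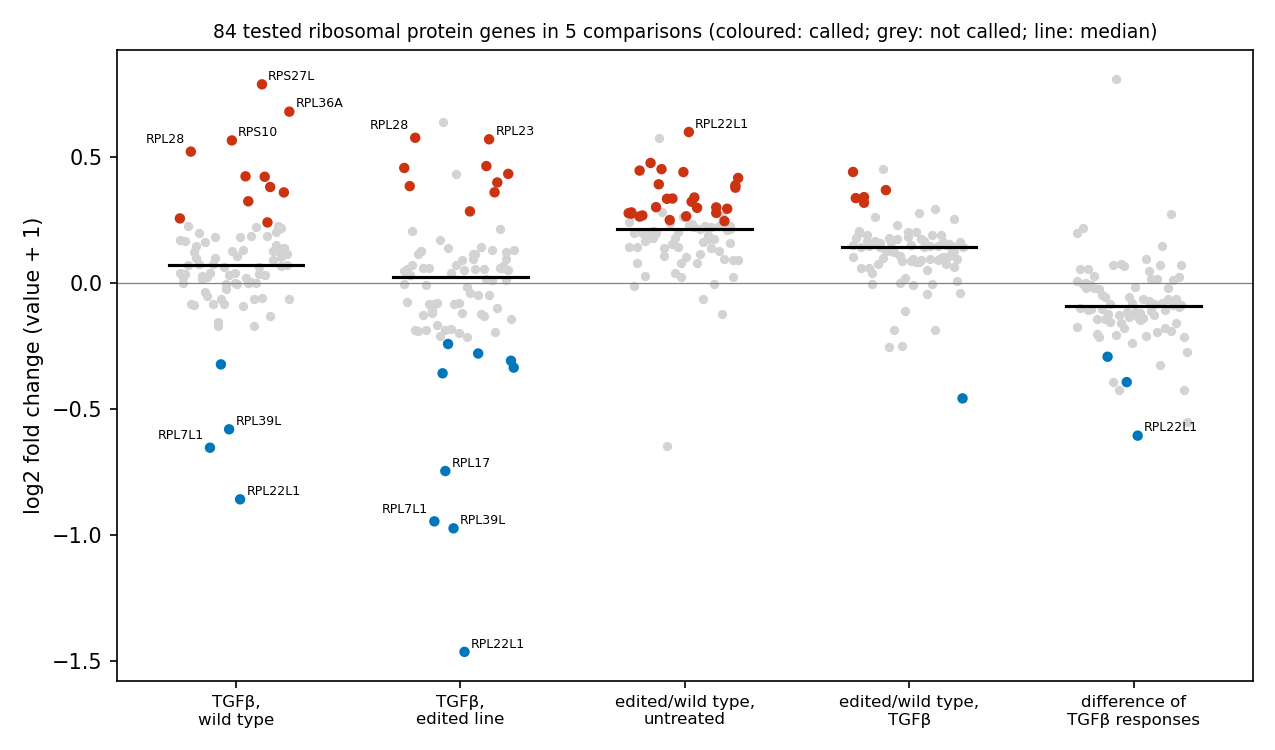
Log2 fold change (value + 1, vertical axis) of the 84 tested ribosomal protein genes in 5 comparisons; red and blue points are called higher and lower, grey ones are not called, and the black line is the median. The last column is a difference of log2 fold changes. RPL22L1 reaches -1.46 with TGFβ in the edited line, and no point is blue for the untreated edited line against wild type.

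The members that fell most were paralogs, and RPL22, RPL39 and RPL7, the partners of the first 3 below, did not pass the test with TGFβ in either line. RPL22L1 (ENSG00000163584.17, chromosome 3) read 4560, 4151 and 3986 in untreated wild type and 2713, 2283 and 2042 with TGFβ. In the edited line it read 6407, 6938 and 5914 untreated and 2415, 2282 and 2267 with TGFβ. The untreated edited libraries were the highest of the 4 groups and the 2 treated groups overlapped. RPL22, its partner, changed by 0.04 ± 0.08 and 0.05 ± 0.08 with TGFβ (adjusted p = 0.703 and 0.627, limma). RPL22L1 was 13.1% ± 0.240 of RPL22 in untreated wild type, 7.02% ± 0.152 with TGFβ, 18.0% ± 1.33 in the untreated edited line and 6.29% ± 0.237 with TGFβ (SD, n = 3). This ratio is within a library and so shares its depth. In wild type the 3 had changes of -0.86 ± 0.09 (RPL22L1), -0.58 ± 0.09 (RPL39L) and -0.65 ± 0.05 (RPL7L1), with adjusted p of 5.09e-07, 1.93e-05 and 2.69e-08 by limma.

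RPL39L, a paralog of RPL39 near the exit tunnel of the ribosome and known from germ cells, read 2037, 1859 and 1913 in untreated wild type and 1475, 1242 and 1181 with TGFβ. For the edited line the values were 2054, 2262 and 2103 untreated and 1159, 1043 and 1065 treated. Treated and untreated libraries did not overlap in either line, and RPL39L as a percent of RPL39 was 5.32% untreated and 3.26% treated in wild type, against 5.08% and 2.47% in the edited line. RPL7L1, whose protein takes part in assembly of the large subunit, read 18003, 18636 and 17715, then 11370, 12173 and 11025 with TGFβ in wild type, and 23147, 24539 and 23665, then 12431, 11953 and 12642 in the edited line. The RPL7L1 transcript, at 4122.5 bases, is the longest of the members. RPL7 had TGFβ changes of 0.02 ± 0.10 and -0.04 ± 0.10, with adjusted p of 0.869 and 0.728 by limma.

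RPS27L went the other way, and as a percent of RPS27 it was 75.2% ± 4.01 untreated and 103.7% ± 2.93 treated in wild type, against 67.2% ± 1.01 and 85.6% ± 1.34 in the edited line (SD, n = 3). RPS27 itself rose with TGFβ in wild type by 0.32 ± 0.10 (adjusted p = 0.01, limma) and had 0.12 ± 0.10 in the edited line (adjusted p = 0.326). RPL26L1, nearly identical in protein to RPL26, did not pass the test in any comparison and read 2195 to 3300. RPL26 read 1345 to 2111 and its transcript is of similar length (674 against 708.5 bases), so the paralog's count stood above its partner's. The RPL26 entry had a mean of 1680, against 34591 for RPL22 and 40772 for RPL39. Whether reads of RPL26 were left uncounted was not tested, so the order of both mRNAs is uncertain.

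**Figure D4:**
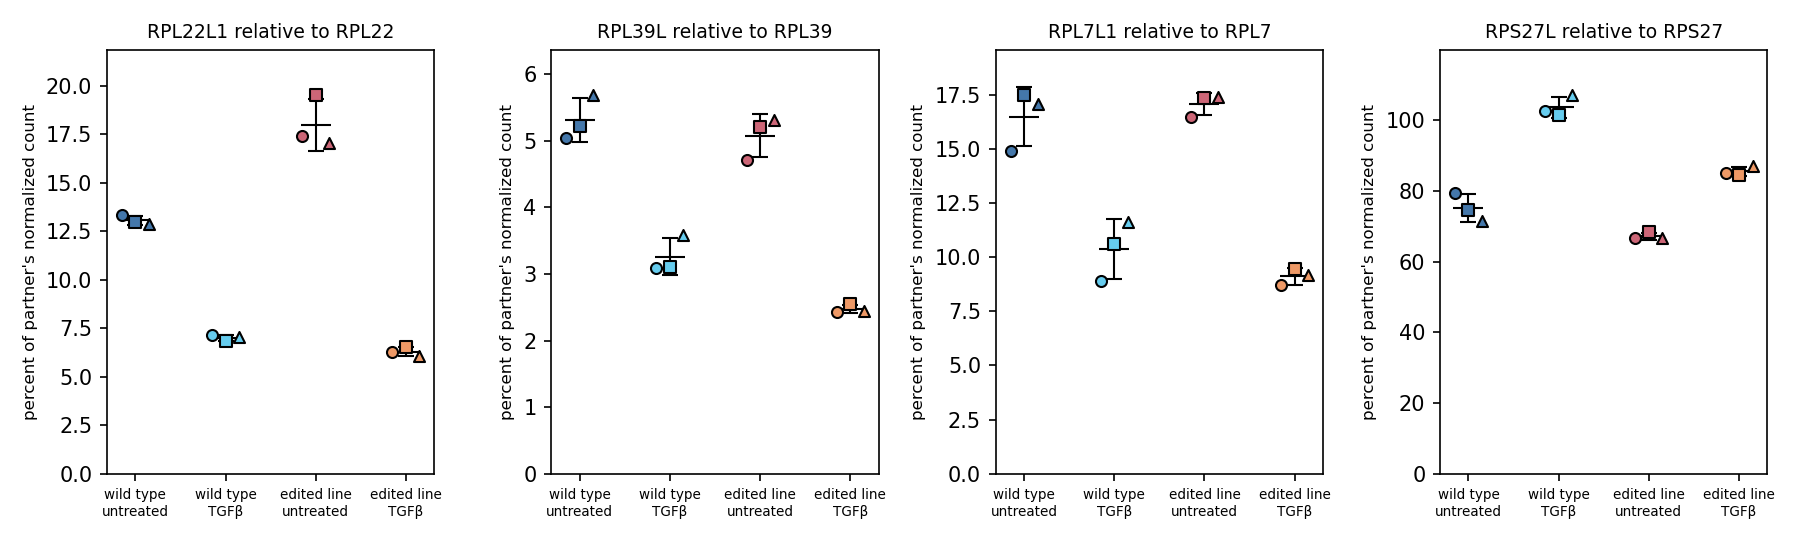
Normalized count of 4 paralogs as a percent of that of their partner gene (vertical axes, from 0) in each library, with the mean and SD (n = 3) per group and marker shapes for replicates. RPL22L1, RPL39L and RPL7L1 lie lower with TGFβ in both lines and RPS27L lies higher, with no overlap between treated and untreated libraries of a line.

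Whether the TGFβ responses of wild type and edited line differed was tested as an interaction. It called 3 of the 84 members lower and 0 higher, where 6.02% and 10.6% of all genes were called. At an unadjusted p under 0.05 there were 9 members, a cutoff for which the share of all genes was not taken. The members' median difference was -0.09, against 0.02 over all genes, with 21 of 84 members above 0. With the length trend removed the members' median was 0.03, against 0.03 over all genes, with 55 members above 0. Without replicate 1 of wild type with TGFβ it was 0.03, against 0.02 over all genes, with 50 above 0. The negative direction was thus lost in both settings. By edgeR's quasi-likelihood test 5 members were called lower and 0 higher, against 7.08% and 9.56% of all genes, and by DESeq2 6 and 0, against 7.85% and 12.7%. The 3 members were RPL22L1 (-0.61 ± 0.13, adjusted p = 0.00439, limma), RPL39L (-0.39 ± 0.12, adjusted p = 0.036) and RPL7L1 (-0.29 ± 0.08, adjusted p = 0.0164). Each fell in both lines and fell further in the edited line. Without replicate 3 of wild type with TGFβ 13 members were called lower and 0 higher, against 8.3% and 12.9% of all genes. Without replicate 1 of that group 2 were lower and 2 higher, against 6.94% and 12.1%. Without its replicate 2 only 1 was lower, with no share of all genes taken. With the length trend removed 3 were lower and 2 higher, against 7.39% and 12.2%, and after centring on the members' median 2 and 1, against 1.56% and 3.76%. With centring RPL39L and RPL7L1 lost their calls (adjusted p of 0.131 and 0.395), and only RPL22L1 of the 3 kept its call in every setting that gave an adjusted p.

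In untreated cells, 26 of 84 members were higher and 0 lower in the edited line than in wild type, where 14.3% of all genes were called higher and 17.5% lower. The median was 0.21, against 0.00 over all genes, and 79 of the 84 lay above 0. Of the members, 55 were separated upward and 1 downward, with 23.7% and 25.1% for all genes. At an unadjusted p under 0.05 there were 39 members, a cutoff for which the share of all genes was not taken. By edgeR 32 were higher and 0 lower, against 15.6% and 16.3% of all genes, and by DESeq2 29 and 0, against 15.9% and 18.6%. The 26 were 7 of 33 small-subunit and 19 of 51 large-subunit members. RPL22L1 rose by 0.60 ± 0.09 (log2 ± SE, adjusted p = 0.000126, limma), from a mean of 4232 ± 295 to 6419 ± 512 (SD, n = 3).

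RPS6, the substrate of S6 kinase, read 111068, 100961 and 97353 in wild type and 142844, 142656 and 137275 in the edited line. All 3 edited libraries lay above all 3 wild-type ones, and the difference was 0.45 ± 0.10 (adjusted p = 0.00199, limma). RPL12, which lies at the base of the stalk, read 66780, 63758 and 61803 against 88877, 89626 and 83672, a difference of 0.45 ± 0.09 (adjusted p = 0.00165). RPL35, at the exit tunnel, differed by 0.48 ± 0.10, RPL30 by 0.44 ± 0.10 and RPL36 by 0.42 ± 0.11, and all 3 were higher without overlap.

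The members on chromosomes 8 and 9 lay highest, and so did other genes there. The 4 tested members on chromosome 9 (RPL12, RPL35, RPL7A and RPS6) had a median of 0.45, and 3 were called. The 653 other genes there had a median of 0.15 and 29.2% were called higher. On chromosome 8 the 4 members (RPL30, RPL7, RPL8 and RPS20) had a median of 0.34, and the 566 other genes had 0.07 with 24.4% called higher. Leaving out both chromosomes but keeping genes without an annotated position (RPS10L among them), 20 of 76 members were called higher and 0 lower. Their median was 0.20, against 13.4% called higher and a median of -0.00 for the 19153 other genes so kept. Chromosomes 8 and 9 were picked out after an earlier analysis of these data had singled them out.

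This count moved with the libraries. For fits with 1 library left out, the share of all genes called was taken only where it is given. Leaving out single libraries gave 9 to 46 members called higher and 0 lower, with 9 without replicate 3 and 10 without replicate 2 of untreated wild type, 11 without replicate 1 or replicate 2 of the untreated edited line, 17 without its replicate 3, 43 without replicate 1 of wild type with TGFβ (16.7% of all genes higher, 19.4% lower) and 46 without its replicate 3 (16.9% and 19.7%). With the length trend removed the median was 0.12, and 21 were higher and 1 lower, against 15.3% and 19.6% of all genes. After centring on the members' median there were 7 and 4, against 4.68% and 23.9%. Centring took the members' median to 0.02 and that of all genes to -0.19. By construction it cannot test a shift that the members share.

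With TGFβ, 5 members were higher and 1 lower in the edited line than in wild type, where 7.38% and 4.32% of all genes were called. The median was 0.14, against 0.01 over all genes, and 5 members were separated upward and 2 downward, with 15.2% and 11.4% for all genes. RPL7A differed by 0.44 ± 0.10 (log2 ± SE, adjusted p = 0.00944, limma), reading 96750, 84496 and 69602 in wild type and 120060, 103561 and 114592 in the edited line. Its groups did not overlap. RPS6 differed by 0.37 ± 0.10, RPL12 by 0.34 ± 0.09, RPL15 by 0.34 ± 0.08 and RPL28 by 0.32 ± 0.09. RPL36A was lower in the edited line, at -0.46 ± 0.14 (adjusted p = 0.0407), with the uncertainty given above. RPS6, RPL12 and RPL7A lie on chromosome 9, where 25.7% of other genes were called higher.

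Of the 5 higher members, 4 (RPL12, RPL15, RPL28 and RPS6) were also among the 26 called without TGFβ, which is 80% of the 5 and 15.4% of the 26. How many of all genes were called higher both with and without TGFβ was not taken, so this overlap does not tell the members from other genes. Without replicate 1 of wild type with TGFβ 34 members were called higher and 0 lower, against 7.41% and 3.74% of all genes. Without its replicate 3 the median was 0.01, with 5 higher and 3 lower, against 11.1% and 7.86%. Without its replicate 2 there were 2 higher, and without replicate 1 or 3 of the treated edited line 1 higher, with 0 lower in each case. The share of all genes was not taken in those cases. By edgeR 6 were higher and 1 lower, against 7.4% and 5.14% of all genes, and by DESeq2 8 and 2, against 9.51% and 6.42%. With the length trend removed there were 14 and 2, against 8.49% and 6.13%, and after centring on the members' median 2 and 3, against 1.73% and 6.49%.

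Genes that build ribosomes were mostly called lower with TGFβ. The counts below stand against 30.8% of all tested genes called higher and 30.9% lower in wild type, and 32.1% and 30.7% in the edited line. Of 50 genes of ribosome assembly and rRNA processing, 0 rose and 42 fell in wild type (median -0.47), and 1 rose and 44 fell in the edited line (median -0.58). Values are log2 fold changes ± SE by limma. DDX21, a helicase of the nucleolus, had -1.07 ± 0.07 in wild type, and NOP58, a core protein of the box C/D particles, had -0.95 ± 0.07 in wild type and -1.42 ± 0.07 in the edited line. Of 14 genes of RNA polymerase I and its factors, 3 (21.4%) rose and 8 (57.1%) fell in both lines, and RRN3, which recruits the polymerase to its promoters, had -1.03 ± 0.05 and -0.84 ± 0.05. Of 28 initiation factor genes, 4 (14.3%) rose and 18 (64.3%) fell in wild type and 4 rose and 16 (57.1%) fell in the edited line. EIF4EBP1, an inhibitor of cap-dependent translation that mTOR controls, had -0.89 ± 0.10 and -1.45 ± 0.10.

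Of 27 tested other TOP genes, 6 (22.2%) rose and 5 (18.5%) fell with TGFβ in wild type, both under the share of all genes. In the edited line 11 (40.7%) rose and 7 (25.9%) fell. The RNAs SNHG1 and SNHG8, hosts of small nucleolar RNAs, had -1.61 ± 0.07 and -1.77 ± 0.10 in wild type, whereas NAP1L1, a histone chaperone, rose by 0.82 ± 0.07. Of 17 regulators of these mRNAs, 0 rose and 10 fell in wild type and 0 rose and 13 fell in the edited line, among them LARP4, which binds poly(A) tails, with -0.91 ± 0.09 in wild type. The mitochondrial ribosomal protein genes, which share the name but not the ribosome, had 3 of 78 called higher and 63 lower in wild type (median -0.51), and 2 and 65 in the edited line (median -0.59). Of 76 respiratory chain genes, 2 rose and 34 fell, and then 1 rose and 49 fell. The members and the other lists were not tested against each other. Counts of these lists are from the main fit and were not taken with the length trend removed. How far the library shift by transcript length enters them was not tested.

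**Figure D5:**
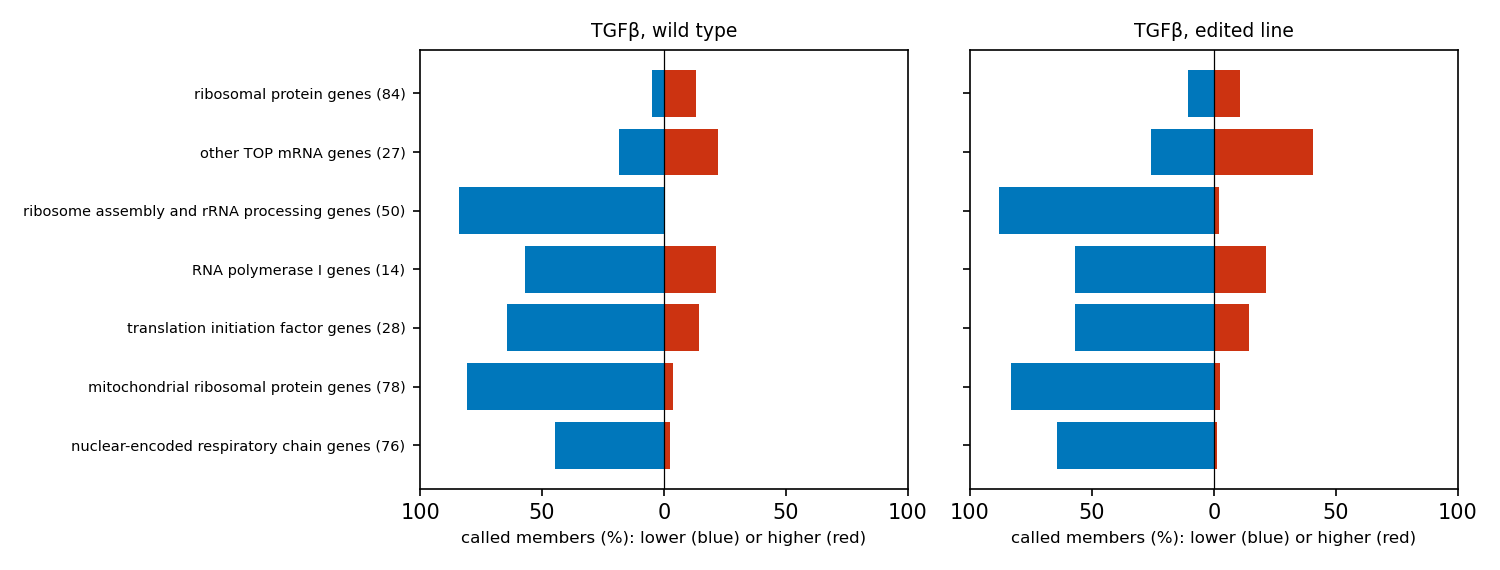
Percent of tested genes called higher (red, to the right) or lower (blue, to the left) with TGFβ in each line, for the ribosomal protein genes and 6 other gene lists, with the number tested in parentheses. In wild type 84% of ribosome assembly genes are called lower against 4.76% of ribosomal protein genes.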

How the data were processed

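The submitters' processing notes name HISAT2, StringTie, featureCounts, DESeq2 and GRCh38.p14, while the sources used here give no roles, versions, annotation or strand setting. The authors deposited a signal of normalized counts (reads divided by a size factor) per gene. In each library every value was a whole multiple of 1 step within 0.01, which gave back the reads (100% whole). The main test was limma 3.58.1 with a trend (R 4.3.3) on log2(value + 1) for the 20456 genes that reached 10 in 3 or more of the 12 libraries. A single fit of 4 group means gave 5 two-sided comparisons, adjusted by Benjamini-Hochberg over all tested genes with a threshold of 0.05. Fold changes on this scale understate low genes, and p-values measure the spread between libraries, which the labels call biological repeats. On the recovered reads, edgeR 4.0.16 and DESeq2 1.42.0 were alternatives. Transcript length was the median over a gene's GENCODE 29 basic transcripts (81% of tested genes had one), chosen after longer principal transcripts had been seen. The limma test was tried on simulated counts with known changes, without the interaction. In genes with a mean of at least 1000, it recovered 40.9% to 56% of 1.25-fold changes and 90.9% to 100% of 1.5-fold changes. A member that was not called can still hold a change near 1.25-fold.

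The members, gene lists and rules were chosen with earlier results of these data known. The rule named SNAI1, the stalk genes, RPSA, RPL5, RPL11, RPS6, the paralog pairs, the 5 highest and 5 lowest members per kilobase, up to 6 called members each way per comparison and up to 4 per list, of which some list genes are left out for length. After the table was seen, older symbols were matched through RefSeq synonyms, and pseudogenes and readthrough entries were dropped from lists built on name patterns. Alternatives changed the pseudocount, filter, scaling, variance estimate, groups fitted, libraries left out, length and GC trends, replicate block and pseudogene reads. Entries whose names had become dates (28) are not named.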

Additional observations from a re-analysis of the deposited data

Results flagged for a closer look

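The TGFβ responses of wild type and edited line differed for 3 members by the interaction test of limma, all of them paralogs and all more negative in the edited line. The difference was -0.606 for RPL22L1, -0.393 for RPL39L and -0.292 for RPL7L1 (log2). RPL22L1 had -0.86 in wild type and -1.46 in the edited line, RPL39L -0.58 and -0.97, and RPL7L1 -0.65 and -0.95. In untreated cells RPL22L1 and RPL7L1 stood higher in the edited line than in wild type (0.60 and 0.39), and RPL39L had 0.14 with an adjusted p of 0.223.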

How the results depend on the processing

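Of the 68 calls of single members, 32 held in every setting that gave an adjusted p, and none changed direction. The settings include centring on the members' median, which takes out their shared shift by construction. With 1 library left out 665 results kept the call and 151 lost it, and under the other settings 1077 kept it and 76 lost it. Over single libraries left out, members called higher and lower with TGFβ ran from 8 to 40 and 3 to 11 in wild type (median -0.0514 to 0.192) and from 8 to 11 and 5 to 17 in the edited line (median -0.0105 to 0.0704). For the edited line against wild type they ran from 9 to 46 and 0 to 0 untreated (median 0.178 to 0.263) and from 1 to 34 and 0 to 3 with TGFβ (median 0.00512 to 0.248). For the difference of TGFβ responses they ran from 0 to 2 and 1 to 13 (median -0.22 to 0.0285).

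With TGFβ in wild type, the count higher was 17 with TMM and 32 with the length trend removed, and the count lower was 12 with quantile scaling or centring on the members and 10 without replicate 1 of both treated groups. In the edited line the count lower was 22 at equal totals, 20 with quantile scaling, centring, only the compared groups or without replicate 1 of both treated groups, 16 with edgeR, and 5 with the length trend removed, which gave 42 higher and a median of 0.193. Untreated, the edited line had 17 members higher than wild type with no filter, 60 with only the compared groups, 45 without replicate 1 of both treated groups and 7 with centring, and 1 lower with the length trend removed and 4 with centring.

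With TGFβ, the count higher in the edited line was 9 with quantile scaling, 8 with DESeq2 or the GC trend removed, 14 with the length trend removed, 10 without replicate 1 of both treated groups, 2 with centring and 1 with only the compared groups. The count lower was 0 with no filter, only the compared groups or replicate 1 left out, 2 at equal totals or with TMM, quantile scaling, DESeq2 or the length trend removed, and 3 with centring. For the difference of TGFβ responses the count lower was 5 at equal totals or with quantile scaling, edgeR or the GC trend removed and 6 with DESeq2, and the count higher was 2 with the length trend removed and 1 with centring or without replicate 1 of both treated groups. Without the 10 highest members the shares were 3.06%, 3.24%, 3.61% and 3.49% in the order of the groups. The cause was not tested for any of these. Beyond the main fit, the share of all genes called was taken with edgeR, DESeq2, the length trend removed and centring. It was also taken without replicate 1 and without replicate 3 of wild type with TGFβ. It was not taken for the other settings, so their counts do not tell the members from other genes.

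With the replicate block, members called higher with TGFβ in wild type numbered 18, lower with TGFβ in the edited line 18, higher in the untreated edited line 43, higher and lower in the treated edited line 9 and 2, and lower for the difference of responses 7. The share of all genes called with the block was not taken, so these counts do not tell the members from other genes. No label ties the numbers across groups, and the correlations of same-numbered libraries' deviations ran from -0.031 to 0.129 over 18 pairs, so the numbers were not used as pairs. As a hint from the data, 8 of 12 libraries correlated best on average with their own number, and replicate 1 had the highest member share in all 4 groups. The highest single correlation, 0.152, was between different numbers, replicate 3 of wild type and replicate 2 of the edited line, both with TGFβ. The hint was not tested.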

Other observations

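The 1014 named ribosomal protein pseudogenes together took 0.0602% to 0.0815% of normalized counts. With TGFβ, 17 of the 126 tested were called higher and 9 lower in wild type, and 15 and 12 in the edited line. These are 13.5% and 7.14%, and 11.9% and 9.52%, where 30.8% and 30.9% of all tested genes were called in wild type and 32.1% and 30.7% in the edited line. The 13 mRNAs of the mitochondrial genome had 11 called higher and 0 lower by limma in wild type (median 0.47) and 4 and 0 in the edited line (median 0.25). At an unadjusted p under 0.05 there were 11 and 6 of them, a cutoff for which the share of all genes was not taken. Of 32 tested clustered histone genes, 5 (15.6%) rose and 7 (21.9%) fell in wild type and 4 (12.5%) rose and 10 (31.2%) fell in the edited line, with HIST1H2AC at -1.30 ± 0.10 (log2 ± SE) in wild type. For the lists in this section, too, counts with the length trend removed were not taken.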
